A study of Mus musculus with 4 samples.

Results

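The clustered replication-dependent histone genes were taken as the protein-coding genes of the deposited expression table whose symbol starts with Hist1h, Hist2h, Hist3h or Hist4. They were 64 of the 24169 genes of the table: 6 genes for the linker histone H1, 17 for H2a, 17 for H2b, 11 for H3 and 13 for H4. RNA had been sequenced from a mouse cell line, C8-D1A, which is established and labelled as astrocytes, in 2 groups of 2 libraries each. The MBP group was kept for 24 h in 1 mM MBP, and the control group was left untreated. The labels do not spell out MBP; the series title concerns dibutyl phthalate, a plasticizer, and AKT and JAK2/STAT3 signalling. The labels describe no difference between the groups other than the compound and do not say whether the untreated cells received its solvent. All libraries were made after removal of ribosomal RNA.

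Histones H2a, H2b, H3 and H4 form the protein core around which DNA is wrapped, and H1 binds the DNA that links one core to the next. The clustered genes supply most new histone protein while DNA is copied in S phase, and their mRNAs are the metazoan mRNAs known to end in a stem-loop in place of a poly(A) tail. The stem-loop is bound by SLBP, and the mRNAs are degraded when DNA synthesis stops, so libraries that need a poly(A) tail largely miss them.

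The 64 genes lay in a few tight groups on the GRCm38 genome. On chromosome 13, 53 genes stretched over 2220 kb, on chromosome 3 there were 8 genes within 50.3 kb, on chromosome 11 there were 2 and on chromosome 6 there was 1, Hist4h4. All 64 positions in the table were those of GENCODE mouse release M21, whose transcripts were searched after the stop codon for the histone form of the stem-loop. It was a stem of 6 perfectly paired bases that starts as GGYYYT, around a loop of 4 bases that reads THTH. Y stands for C or T, and H for A, C or T. Stem-loops of other letters were not searched for. A stem-loop was found in 44 of the 64 transcripts, 21 to 58 bases past the stop codon (median 31). Of the 20 transcripts without one, 17 had fewer than 60 annotated bases after the stop codon, and 3 had more (Hist1h2bc, Hist1h2bq and Hist2h2be). Among other coding genes of the annotation 6 held such a stem-loop (0.0276%), H2afx among them, together with 2 further Hist2 genes that were not analysed here. The sequence differed by class, and 4 of the most frequent forms are shown because they separate H4 from the other classes. Another form, also found in 2 genes (both H4), is not shown. They are written 5′ to 3′ with the stem in capitals and the loop in lower case, as DNA letters of the GENCODE transcripts.
Form in 24 genes (3 H1, 9 H2a, 8 H2b, 4 H3): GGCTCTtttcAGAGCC
Form in 7 genes (all H4): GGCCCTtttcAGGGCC
Form in 6 genes (1 H1, 2 H2b, 3 H3): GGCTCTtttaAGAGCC
Form in 2 genes (both H4): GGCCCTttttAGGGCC
All 12 H4 genes with a stem-loop carried a form found in no H1, H2a, H2b or H3 gene of the list, and the other classes shared theirs.

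Promoter sequence was available from RefSeq (GRCm38.p6, 250 bases before to 50 bases after the transcript start) for 58 of the 64 genes. Both strands were searched for 4 motifs that are known from histone promoters: the CCAAT box (CCAAT), the TATA box (TATAAA), the octamer bound by OCT1 (ATTTGCAT) and a core of the H4 promoter element bound by HINFP in human cells (GGTCCG). No motif contains another. The CCAAT box was present in all 6 H1, 16 H2a, 15 H2b and 9 H3 promoters and in 3 of 12 H4 promoters, against 37.4% of all 32851 promoters of that length. The H4 core was present in 11 of 12 H4 promoters, in 1 of 15 H2b and 1 of 9 H3 promoters and in no H1 or H2a promoter, against 8.25% of all promoters. The octamer occurred in 7 of 16 H2a and 6 of 15 H2b promoters and in no other class, against 1.74% of all promoters. TATAAA was present in 58.6% of the matched histone promoters and in 13.6% of all promoters. A match describes the letters only. Where neighbouring H2a and H2b genes point away from each other their windows overlap, and the same site can count for both. The octamers of Hist1h2aa and Hist1h2ba, of Hist1h2ae and Hist1h2bg and of Hist1h2ah and Hist1h2bk are the same bases. A TATAAA is shared in the same way by Hist1h2ak and Hist1h2bn, by Hist1h2ad and Hist1h2bf and by Hist1h2an and Hist1h2bp. Hist1h2ah and Hist1h2bk, Hist1h2ae and Hist1h2bg, and Hist1h2aa and Hist1h2ba share one too. The counts are therefore not of separate sites. The promoters below belong to Hist2h2ac, the H2a gene with the highest level, to Hist1h2bn, the histone gene with the lowest p between the groups, to Hist1h2bj, the H2b gene with the highest level, and to Hist1h4d, a high H4 gene. Matches to the 4 motifs on either strand are in capitals.
Hist2h2ac, GRCm38.p6 chr3:96220831-96221130, minus strand: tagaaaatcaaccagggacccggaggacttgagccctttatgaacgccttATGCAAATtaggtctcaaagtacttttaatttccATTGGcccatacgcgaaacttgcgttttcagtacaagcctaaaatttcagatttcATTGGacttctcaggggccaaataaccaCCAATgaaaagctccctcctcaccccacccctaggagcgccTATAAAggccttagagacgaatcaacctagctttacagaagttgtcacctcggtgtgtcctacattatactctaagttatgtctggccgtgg
Hist1h2bn, GRCm38.p6 chr13:21753826-21754125, plus strand: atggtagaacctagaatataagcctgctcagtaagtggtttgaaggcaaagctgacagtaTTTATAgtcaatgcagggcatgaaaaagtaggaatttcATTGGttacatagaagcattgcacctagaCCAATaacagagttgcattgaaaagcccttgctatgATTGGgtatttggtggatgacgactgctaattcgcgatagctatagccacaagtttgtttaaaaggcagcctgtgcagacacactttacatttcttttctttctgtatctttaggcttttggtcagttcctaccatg
Hist1h2bj, GRCm38.p6 chr13:22042948-22043247, plus strand: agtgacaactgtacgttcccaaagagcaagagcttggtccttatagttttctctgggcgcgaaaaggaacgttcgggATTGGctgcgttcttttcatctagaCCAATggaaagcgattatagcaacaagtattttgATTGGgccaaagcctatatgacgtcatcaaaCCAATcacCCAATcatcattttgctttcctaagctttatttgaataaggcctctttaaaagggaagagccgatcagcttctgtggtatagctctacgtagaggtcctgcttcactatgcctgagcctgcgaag
Hist1h4d, GRCm38.p6 chr13:23581318-23581617, plus strand: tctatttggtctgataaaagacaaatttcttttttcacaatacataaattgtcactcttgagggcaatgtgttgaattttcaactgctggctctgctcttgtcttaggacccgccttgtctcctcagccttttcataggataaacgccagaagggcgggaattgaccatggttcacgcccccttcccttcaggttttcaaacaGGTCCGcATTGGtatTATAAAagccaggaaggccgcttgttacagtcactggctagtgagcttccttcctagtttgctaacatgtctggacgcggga
The first of these windows reads an octamer on the opposite strand, 3 CCAAT boxes and a TATA box, and the last reads the H4 core, a CCAAT box on the opposite strand and a TATA box close together.

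Levels are given in FPKM, fragments per kilobase of gene and 1000000 mapped fragments, as the authors deposited them. The steps between low values gave a depth of 23954000 and 25907000 reads in MBP 1 and 2 and 24349000 and 23571000 reads in control 1 and 2, and every value of the 64 genes was a whole number of reads to within 0.001. Of 11 astrocyte markers, 7 were at most 0.312 FPKM in every library, among them Gfap at 0.218 and 0.119 FPKM in MBP and 0.282 and 0.241 FPKM in control libraries. The 11 markers summed to 522 and 509 FPKM in MBP and to 549.6 and 553.6 FPKM in control libraries, nearly all of it Vim, which is not particular to astrocytes. Of 6 oligodendrocyte lineage markers, which summed to 105.05 and 104.7 FPKM in MBP and 119 and 113 FPKM in control libraries, Sox10 made up most, with 89.6 and 87.8 FPKM in MBP and 99.97 and 96.1 FPKM in control libraries. Olig1 had 1.41 and 1.4997 FPKM in MBP and 2.62 and 1.96 FPKM in control libraries (log2 fold change -0.42, limma adjusted p = 0.503). Of 6 neuron markers, which summed to 25.9 and 25.5 FPKM in MBP and 35.4 and 32.6 FPKM in control libraries, Tubb3 made up most, with 23.8 and 23.3 FPKM in MBP and 33.2 and 30.8 FPKM in control libraries (-0.43, adjusted p = 0.421), and Snap25, Syt1 and Gad1 were at or near 0. The part of these markers in the results was not tested.

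Histone mRNA was abundant and its summed level was lower in both MBP libraries than in both control libraries. The 64 genes summed to 3266 and 3252 FPKM in MBP 1 and 2, against 3763 and 3825 FPKM in control 1 and 2. The means were 3259 ± 10.03 FPKM in MBP and 3794 ± 43.9 FPKM in control libraries (SD, n = 2 each), a ratio of 0.859 or 14.1% less. They made up 1.36% and 1.39% of all FPKM in the MBP libraries and 1.58% and 1.57% in the control libraries. Counted as reads, not divided by gene length, they took 2560.2 and 2570.4 of 1000000 reads in the MBP libraries, against 2977 and 3003 in the control libraries. The gap between the groups was wider than the spread within either. With 2 libraries against 2 an exact two-sided permutation test cannot go below 0.333, so the sums were not tested. In bulk RNA, fewer cells copying their DNA and less histone mRNA in each such cell cannot be told apart.

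All 5 classes were lower in the MBP libraries, by 10.8% to 21.6%. H2b had the lowest ratio of the 5, at 354 and 370.1 FPKM in MBP and 459 and 464 FPKM in control libraries (ratio 0.784). H1 summed to 486 and 461 FPKM in MBP and to 549 and 575 FPKM in control libraries (0.842). H4 summed to 908 and 901 FPKM in MBP and to 1039.9 and 1081 FPKM in control libraries (0.853). The 2 remaining classes had the ratios closest to 1. H2a summed to 944 and 940.1 FPKM in MBP and to 1069.6 and 1057 FPKM in control libraries (0.886). H3 summed to 574 and 579.7 FPKM in MBP and to 645 and 648 FPKM in control libraries (0.892). In no class did an MBP library reach the lower control library. The make-up of the histone mRNA shifted by small amounts. H2b took 10.8% and 11.4% of histone FPKM in MBP and 12.2% and 12.1% in control libraries. H3 took 17.6% and 17.8% in MBP and 17.1% and 16.9% in control libraries, and H2a took 28.91% and 28.91% in MBP and 28.4% and 27.6% in control libraries. The shares of these 3 classes did not overlap between the groups, with H2b lower and H3 and H2a higher in MBP, and those of H1 and H4 overlapped. Whether the classes differed in their ratio was not tested.

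**Figure D1:**
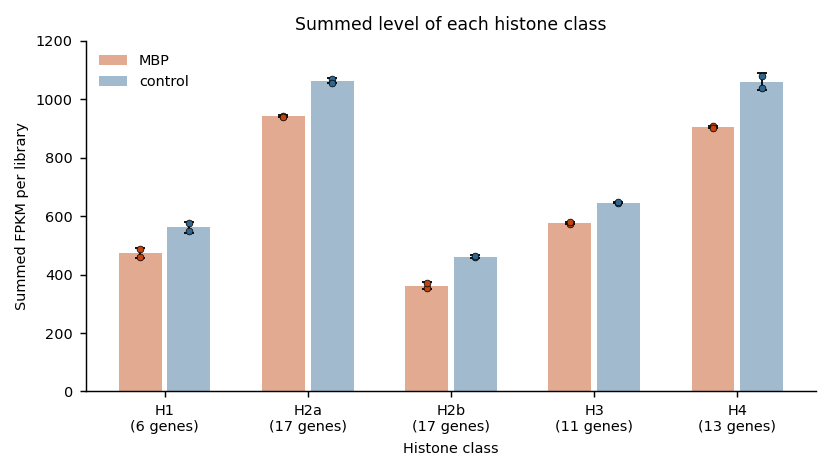
Summed FPKM of the genes of each histone class (bars, mean; points, the 2 libraries; error bars, SD), with MBP in orange and control in blue. In each class both MBP points lie below both control points, with H2b at 354 and 370.1 FPKM in MBP and 459 and 464 FPKM in control libraries.

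Gene by gene, 51 of the 64 histone genes had at least 1 FPKM in at least 2 libraries and entered a limma test on log2(FPKM + 1) with the 12403 genes that passed this filter. None of the 51 had reached it in one group alone. No histone gene passed an adjusted p of 0.05 in limma, and neither did any other gene (0% of genes tested); the lowest adjusted p of all genes was 0.392, which was also that of Hist1h2bn. At an unadjusted p under 0.05, 24 of the 51 (47.1%) were lower in MBP and 0 were higher, against 5.87% of all tested genes lower and 3.81% higher. The log2 fold change was below 0 in 44 of the 51 (86.3%), against 51.6% of all tested genes and 68.4% of other genes of like GC content. The median was -0.21, against -0.005 over all tested genes. In 29 of the 51 (56.9%) both MBP libraries were below both control libraries and in 0 above them, where 23.5% of all tested genes were lower and 21.3% higher without overlap. The 24 genes had folds of 0.664 to 0.872, and in every one the groups did not overlap. Without MBP 1 the 24 became 15, and without MBP 2 they became 14. Without control 2 there were 3 higher genes in place of 0. After each library was corrected for GC content and length the median was -0.16, 13 genes were lower, all of them among the 24, and 1 was higher, Hist2h3c2, against 3.6% of all genes lower and 3.31% higher. In limma-voom on the recovered reads 2 of the histone genes passed an adjusted p of 0.05, both lower in MBP, where 0.117% of 14518 genes were lower and 0.00689% higher.

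**Figure D2:**
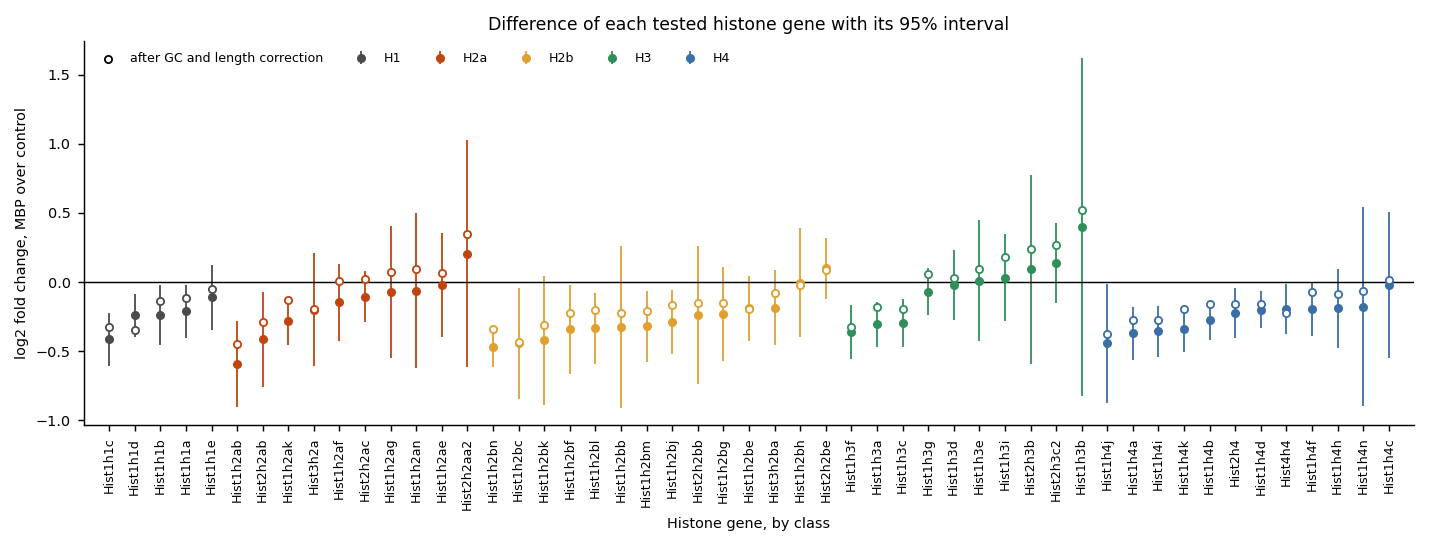
Log2 fold change of MBP over control on log2(FPKM + 1) for the 51 tested histone genes, ordered within class (filled points, limma; bars, 95% interval; open points, after correction for GC content and length). 44 filled points lie below 0, the H1 and H4 points all do, and the H3 points are split 5 to 5.

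The 6 H1 genes encode 6 different proteins, and 3 of them supplied 89.7% of H1 FPKM. Hist1h1b had the highest level, at 191 and 184 FPKM in MBP and 207 and 237 FPKM in control libraries. Its log2 fold change was -0.24 (95% interval -0.45 to -0.02, limma adjusted p = 0.507). Hist1h1a had 182 and 164 FPKM in MBP and 203 and 197 FPKM in control libraries, with a log2 fold change of -0.21 (-0.40 to -0.02, adjusted p = 0.511). Both genes were lower in each MBP library than in each control library. Without control 2 Hist1h1b was at -0.15, and without MBP 2 Hist1h1a was at -0.14. With GC content and length corrected they were at -0.14 and -0.12, and with quantile normalization at -0.14 and -0.11. Hist1h1c, at chr13:23738808-23740367 on the plus strand, had 60.4 and 65.2 FPKM in MBP and 80.0 and 88.1 FPKM in control libraries. Its log2 fold change of -0.42 (-0.61 to -0.22) had an unadjusted p of 0.00249 and an adjusted p of 0.457 in limma. It is a single-exon gene covered by 2792 reads per library on average, and it was 1 of the 2 histone genes called by limma-voom (log2 fold change -0.42, adjusted p = 0.0273); over the 15 other alternatives its adjusted p was 0.221 to 0.875. Hist1h1d had 15.8 and 15.4 FPKM in MBP and 19.3 and 18.0 FPKM in control libraries, and Hist1h1e overlapped between the groups. The testis-specific Hist1h1t had 5.25 reads per library on average and was not tested.

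H2a was dominated by a pair of genes. Hist2h2ac, a single-exon gene at chr3:96220361-96220880 on the minus strand, had 571 and 564 FPKM in MBP and 613 and 608 FPKM in control libraries and supplied 58.7% of H2a FPKM. Its groups did not overlap, but its log2 fold change was only -0.11 (-0.29 to 0.08, limma adjusted p = 0.633), and it was 0.02 after the GC and length correction. Hist1h2ak had 314 and 324 FPKM in MBP and 394 and 383 FPKM in control libraries. Its log2 fold change was -0.28 (-0.46 to -0.11, adjusted p = 0.493), but -0.13 with GC content and length corrected and -0.17 with quantile normalization. Next in level, Hist1h2af was far below them at 25.9 and 21.6 FPKM in MBP and 24.7 and 28.0 FPKM in control libraries, with overlapping groups. These 3 genes held 96.5% of H2a FPKM, and the other 14 had a mean of at most 10.3 FPKM over the libraries. Hist1h2ab, a low gene with 58.5 reads per library on average, had 4.41 and 3.35 FPKM in MBP and 6.08 and 6.55 FPKM in control libraries. Its log2 fold change of -0.59 (-0.90 to -0.28, unadjusted p = 0.00449, adjusted p = 0.457) was the lowest of the 51. Of the 100-base windows of its transcript 47.6% were found in no other gene, so its reads may be shared with its copies. Of 10 tested H2a genes 9 had a negative log2 fold change, against 51.6% of all tested genes, with a median of -0.13. At an unadjusted p under 0.05, 3 were lower, against 5.87% of all tested genes. With GC content and length corrected, the H2a median was 0.02, with 4 of 10 negative.

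H2b was spread over more genes. Hist1h2bj, the highest, supplied 27.2% of H2b FPKM, with 92.8 and 109.1 FPKM in MBP and 123.7 and 122.4 FPKM in control libraries. Its log2 fold change was -0.29 (-0.52 to -0.06, limma adjusted p = 0.503). Hist1h2bn, at chr13:21754123-21754503 on the plus strand, had 71.0 and 67.9 FPKM in MBP and 95.3 and 98.2 FPKM in control libraries. Its log2 fold change of -0.47 (-0.62 to -0.33) had the lowest unadjusted p of the histone genes, 0.000374, with an adjusted p of 0.392. Limma-voom gave it -0.48 with an adjusted p of 0.0348; over its 15 other alternatives the adjusted p was 0.132 to 0.567. Its transcript is not unique: 47.9% of its 100-base windows were found in no other gene, so its reads may be shared with its copies. Hist1h2bf had 65.8 and 69.1 FPKM in MBP and 97.3 and 75.6 FPKM in control libraries, a log2 fold change of -0.34 (-0.66 to -0.02, adjusted p = 0.512). It varied with the control library: without control 1 Hist1h2bf was at -0.16, and without control 2 at -0.52. Without MBP 1 Hist1h2bj was at -0.17, and with GC content and length corrected Hist1h2bj was at -0.16 and Hist1h2bf at -0.22. All 3 genes were lower in each MBP library than in each control library. Of 14 tested H2b genes 13 were negative and 6 were lower at an unadjusted p under 0.05, with a median of -0.30. The shares over all tested genes were 51.6% negative and 5.87% lower. After the GC and length correction 13 H2b genes were negative and the median was -0.20. Hist1h2bf, Hist1h2bj, Hist1h2bl, Hist1h2bn and Hist1h2bq encode one and the same protein, and together they had 256 and 275 FPKM in MBP and 349 and 335 FPKM in control libraries. The testis gene Hist1h2ba had 0.5 reads per library on average.

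H3 genes were split, with some abundant genes lower in MBP and others overlapping. Hist1h3c, the highest, had 174 and 187 FPKM in MBP and 218 and 226 FPKM in control libraries, a log2 fold change of -0.30 (-0.47 to -0.12, limma adjusted p = 0.486). Hist1h3f had 48.6 and 43.3 FPKM in MBP and 61.0 and 57.6 FPKM in control libraries, a log2 fold change of -0.36 (-0.56 to -0.17, unadjusted p = 0.00483, adjusted p = 0.457). These genes and Hist1h3a were the 3 H3 genes lower at an unadjusted p under 0.05, where 5.87% of all tested genes were lower. Hist1h3g and Hist1h3e, the next 2 in level, overlapped between the groups. Hist1h3g had 163 and 151 FPKM in MBP and 161 and 168 FPKM in control libraries (log2 fold change -0.07, -0.24 to 0.10, adjusted p = 0.722). Hist1h3e had 70.4 and 86.9 FPKM in MBP and 90.2 and 66.9 FPKM in control libraries (0.01, -0.43 to 0.45, adjusted p = 0.987). The 10 tested H3 genes had a median of -0.01, with 5 negative and 5 positive. With GC content and length corrected the H3 median turned to 0.08, with 3 of 10 negative, 2 lower and 1 higher at an unadjusted p under 0.05, and Hist1h3c was at -0.20. The interval of Hist1h3b was the widest of the 51, at 7.20 and 8.72 FPKM in MBP and 3.05 and 10.3 FPKM in control libraries. The 11 H3 genes encode 2 proteins. The 7 genes of the protein H3.2 summed to 328 and 347 FPKM in MBP and to 393 and 385 FPKM in control libraries. The 4 genes of H3.1 (Hist1h3a, Hist1h3g, Hist1h3h and Hist1h3i) summed to 246 and 233 FPKM in MBP and to 253 and 263 FPKM in control libraries.

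The 13 H4 genes encode a single protein from 12 different coding sequences, and every tested one had a negative log2 fold change. Hist2h4, at chr3:96261682-96263311 on the minus strand, supplied 44.3% of H4 FPKM, with 391 and 412 FPKM in MBP and 472 and 466 FPKM in control libraries. It held more reads than any other histone gene, 17335 per library on average, and its log2 fold change was -0.22 (-0.41 to -0.04, limma adjusted p = 0.503). Hist1h4f had 134 and 125 FPKM in MBP and 141 and 155 FPKM in control libraries (-0.19, -0.39 to 0.002, adjusted p = 0.516). Hist1h4d had 110.3 and 110.6 FPKM in MBP and 126.6 and 127.3 FPKM in control libraries (-0.20, -0.34 to -0.06, adjusted p = 0.496). In all 3 the groups did not overlap. Hist1h4k had 57.8 and 54.9 FPKM in MBP and 68.6 and 74.5 FPKM in control libraries (-0.34, -0.51 to -0.17, unadjusted p = 0.00365). Only 35.7% of the 100-base windows of Hist1h4k were found in no other gene, so its reads may be shared with its copies. Hist1h4b had 69.0 and 66.1 FPKM in MBP and 80.3 and 83.5 FPKM in control libraries (-0.27, -0.42 to -0.13, unadjusted p = 0.00463). Some genes of lower level had differences of this size and others did not. Hist1h4a had 14.8 and 14.6 FPKM in MBP and 18.1 and 20.5 FPKM in control libraries (-0.37, -0.56 to -0.18, unadjusted p = 0.00402). Hist1h4i had 9.88 and 10.4 FPKM in MBP and 12.5 and 13.9 FPKM in control libraries (-0.36, -0.54 to -0.17, unadjusted p = 0.00423). Hist1h4c, with 15.5 and 20.1 FPKM in MBP and 14.7 and 21.7 FPKM in control libraries, overlapped between the groups (-0.02, -0.55 to 0.51). The adjusted p of Hist1h4k, Hist1h4b, Hist1h4a and Hist1h4i was 0.457 each. With GC content and length corrected, Hist1h4k was at -0.20, Hist1h4b at -0.16 and Hist1h4f at -0.07. Quantile normalization put Hist2h4 at -0.09 and Hist1h4d at -0.13, and without control 2 Hist1h4f was at -0.12. Of 12 tested H4 genes 8 were lower at an unadjusted p under 0.05, against 5.87% of all tested genes, with a median of -0.21. After the GC and length correction 11 were negative, against 49.9% of all genes, with a median of -0.16.

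**Figure D3:**
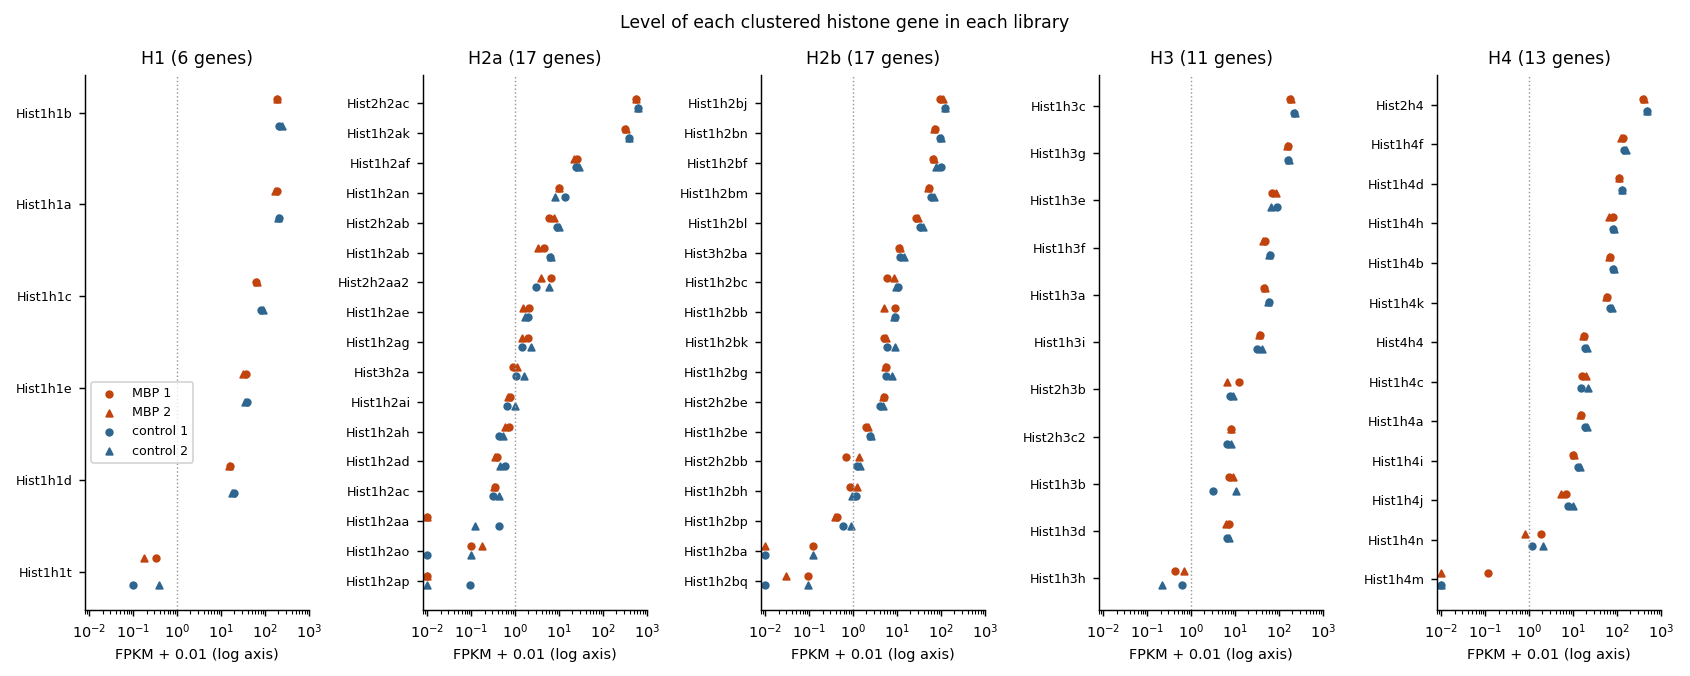
FPKM of all 64 histone genes in each library on a log axis after adding 0.01, ordered by mean level within each class (orange, MBP; blue, control; circles and triangles, libraries 1 and 2; dotted line, 1 FPKM). Levels run from 0.0213 FPKM for Hist1h2ap to 589 FPKM for Hist2h2ac, while the 4 libraries of a gene lie close together except in genes of few reads.

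The 13 genes that were not tested never exceeded 0.972 FPKM or 24 reads in a library. In 3 of them both MBP libraries were below both control libraries, in 1 they were above, and in 9 the groups overlapped. Of the genes that were tested, 23.5% were lower and 21.3% higher without overlap, but those had passed the filter that the 13 genes failed. No share for genes of so low a level is given here, so nothing is read from these counts. Hist1h2aa, a testis gene, was listed at 0 in both MBP libraries and had 1.25 reads per library on average, so no difference was detectable at this depth.

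Neighbouring H2a and H2b genes often lie head to head and share the stretch between their starts. There were 11 such pairs, with 175 to 305 bases between the annotated starts, and their members differed widely in level. The H2a gene was the higher in FPKM in 5 pairs and the H2b gene in 6, and in reads in 4 and 7. In 2 of the pairs, Hist1h2aa with Hist1h2ba and Hist1h2ao with Hist1h2bq, both genes had under 3 reads per library on average, too few to order them. Hist2h2ac averaged 589 FPKM, while Hist2h2be, 238 bases away on chromosome 3, averaged 4.64 FPKM. Hist2h2be had 5.003 and 4.66 FPKM in MBP and 4.15 and 4.74 FPKM in control libraries, a log2 fold change of 0.10 (-0.12 to 0.32, limma adjusted p = 0.690). Its annotated transcript of 2620 bases holds no stem-loop of the searched form, and it is the only one of the 6 named pair genes with a positive log2 fold change. In reads, not divided by length, the pair averaged 7481 for Hist2h2ac and 297 for Hist2h2be. Hist1h2ak and Hist1h2bn, 295 bases apart on chromosome 13, were both high, averaging 354 and 83.1 FPKM, and both were lower in MBP. Hist1h2bj averaged 112 FPKM and its partner Hist1h2ag, 269 bases away, 1.78 FPKM. Hist1h2ag had 1.98 and 1.43 FPKM in MBP and 1.44 and 2.27 FPKM in control libraries, from 21 reads per library on average, and its groups overlapped. Only 23.8% of the 100-base windows of Hist1h2ag were found in no other gene, against 59.9% for Hist1h2bj; the part of shared reads in its low level was not tested. The promoter windows printed above for Hist2h2ac and Hist1h2bj take in nearly all of the stretch they share with their partner.

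The histone genes are close copies of each other, and a read that fits several of them may be dropped, split or counted more than once. Not given in the sources used here is how the authors handled such reads. The share of 100-base windows of a transcript that occur in no other annotated gene ranged from 0% for Hist2h2aa2 to 100%, with a median of 66.5%. In 12 genes it was under 25%, and these had a median level of 0.657 FPKM and none above 10.3 FPKM. In 42 genes it was at least 50%, with a median of 17.6 FPKM. Over the 64 genes the share and the mean level had a Spearman correlation of 0.36, a description only, since copies share sequence. Of the 37 tested genes with at least 50% unique windows, 35 had a negative log2 fold change, the median was -0.23, and 20 were lower at an unadjusted p under 0.05. Of 9 with 25% to 50%, 6 were negative, the median was -0.34 and 4 were lower, and of 5 under 25%, 3 were negative, the median was -0.06 and 0 were lower. The shares over all tested genes were 51.6% negative and 5.87% lower. Over all 42 genes with at least 50% unique windows the ratio of summed FPKM was 0.861.

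**Figure D4:**
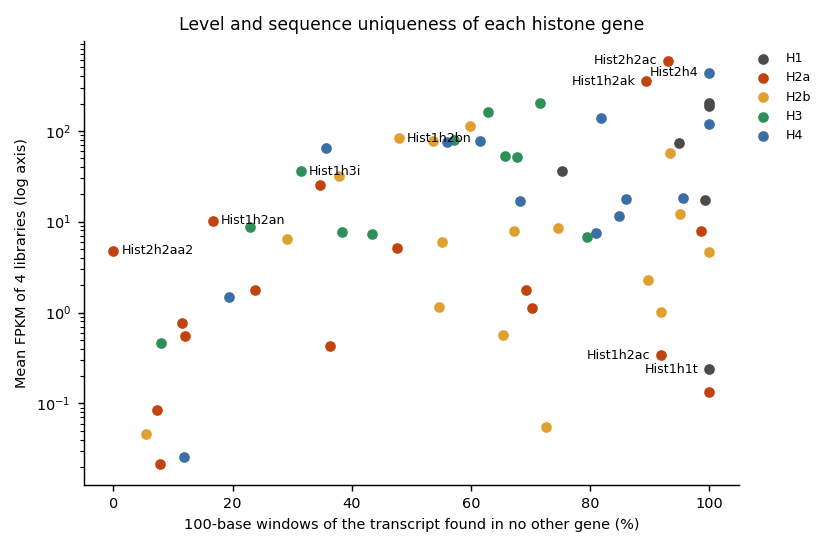
Mean FPKM over the 4 libraries (log axis) against the share of 100-base windows of the transcript found in no other gene, 1 point per histone gene, coloured by class. The 12 genes under 25% all lie at or below 10.3 FPKM, and Hist2h2ac (589 FPKM) and Hist2h4 (435 FPKM) lie at 93.1% and 100%.

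Gene models also bear on the levels. In 22 of the 44 genes with a stem-loop the annotated transcript runs on for more than 100 bases past it, in Hist1h1d to a length of 7425 bases, and reads of a normal end are then divided by a longer length. The difference between the groups had the same direction with each kind of model. The median log2 fold change was -0.27 over 17 tested genes whose model ends within 100 bases of the stem-loop, -0.20 over 20 with a longer model and -0.24 over 14 with none. A predicted miRNA lies on the opposite strand of 16 H2a genes, and in the 10 of these whose miRNA has a row in the table that row held 0 to 47 reads per library. Opposite Hist1h2ak, for example, Gm44454 had 6 and 16 reads in MBP and 15 and 15 in control libraries, where Hist1h2ak itself had 2952 and 3298 reads in MBP and 3772 and 3545 in control libraries. Hist1h2be shares 838 exon bases with Hist1h1e on the same strand, and Hist3h2a shares 708 with Trim17, which had 2 to 4 reads per library. The antisense gene Gm20628, with 770 to 1026 reads per library, lies opposite all 381 bases of Hist2h2bb and all 488 of Hist2h3b. Hist2h2bb itself had 6 to 13 reads per library and Hist2h3b 82 to 141. Gm20632, with 8 to 33 reads, lies opposite all 528 bases of Hist2h2aa2. The values of these histone genes are therefore uncertain.

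GC content differed between the histone genes and the rest and moved with the fold change. The median GC content was 58.1% over the 64 genes and 49.0% over all tested genes. Other genes had a median log2 fold change of 0.08 in the lowest eighth of GC content and -0.09 in the highest. The median of the tested histone genes lay below that of the other genes in each eighth, but eighths 1 to 6 held only 1 to 4 histone genes each. In the highest, 26 histone genes had a median of -0.19, and in the seventh, 8 had a median of -0.27 where other genes had -0.07. Signs differed less. In the highest eighth 21 of the 26 histone genes (80.8%) were negative, against 80.7% of other genes, and 11 were lower at an unadjusted p under 0.05, against 15.6% of other genes. In the seventh all 8 were negative, against 75.1% of other genes. These 2 eighths held 34 of the 51 tested histone genes. With each eighth weighted by its histone genes, 68.4% of other genes were negative and 10.8% were lower at an unadjusted p under 0.05, where the histone genes had 86.3% and 47.1%. The correction for GC content and length left 36 of 51 histone genes negative, against 49.9% of all genes. The part of GC content in the histone difference was not tested beyond these values.

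**Figure D5:**
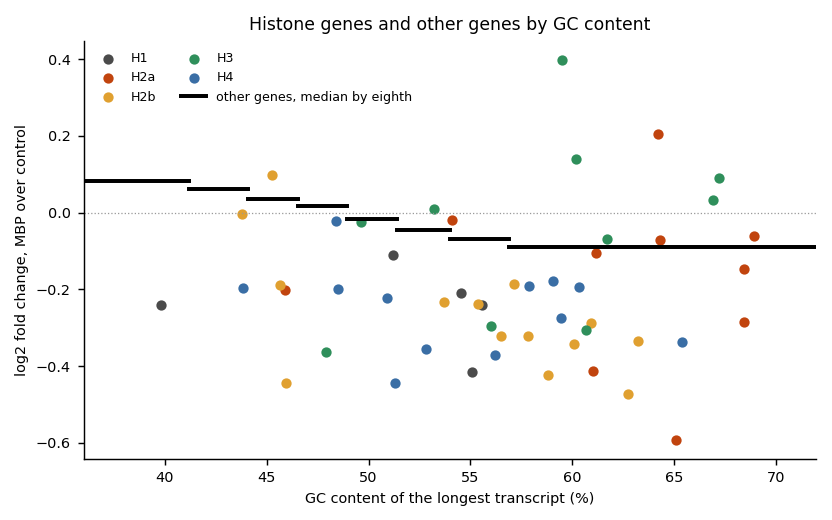
Log2 fold change of MBP over control against the GC content of the longest transcript for the 51 tested histone genes (points, by class) with the median of other genes in each eighth of GC content (black lines). The lines go down from 0.08 to -0.09 with GC content, and 44 histone genes lie below 0.

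The genes that transcribe, process and carry histones had medians close to 0. Of 21 tested genes for 3′ end processing and decay of histone mRNA 9 were negative, 0 had an unadjusted p under 0.05 and the median log2 fold change was 0.01. Slbp, the stem-loop binding protein, had 9.85 and 10.7 FPKM in MBP and 9.64 and 10.4 FPKM in control libraries (0.03, limma adjusted p = 0.881). Lsm10 and Lsm11 belong to the U7 particle that cuts the mRNA. Lsm10 had 13.2 and 13.1 FPKM in MBP and 12.1 and 14.9 FPKM in control libraries (adjusted p = 0.942). Lsm11 had 1.24 and 1.495 FPKM in MBP and 1.30 and 1.64 FPKM in control libraries (adjusted p = 0.887). For all 3 the groups overlapped. Of 19 tested genes of histone gene transcription 1 was lower at an unadjusted p under 0.05 (E2f1) and 1 higher (Gabpa). The shares over all tested genes were 5.87% and 3.81%. Without overlap 2 of the 19 were lower and 6 higher, where 23.5% and 21.3% of all tested genes were. Npat, the coactivator of the clustered genes, had 23.3 and 22.5 FPKM in MBP and 21.9 and 20.2 FPKM in control libraries (0.11, adjusted p = 0.571). Casp8ap2, which is needed for histone transcription and 3′ end processing, had 13.2 and 12.2 FPKM in MBP and 12.6 and 11.2 FPKM in control libraries (0.09, adjusted p = 0.708). Npat was thus slightly higher in each MBP library than in each control library and Casp8ap2 overlapped. Of 27 chaperone and deposition genes 0 had an unadjusted p under 0.05, with a median of -0.02. In 7 of the 27 both MBP libraries were below both control libraries, and in 5 they were above, against 23.5% and 21.3% of all tested genes. Ubn1, with the lowest p of this list, was among the higher genes. It had 21.1 and 20.7 FPKM in MBP and 19.2 and 18.8 FPKM in control libraries (0.13, limma adjusted p = 0.516). Chaf1a, a subunit of the CAF-1 complex that deposits new H3 and H4, had 33.2 and 31.3 FPKM in MBP and 35.1 and 36.2 FPKM in control libraries (-0.14, adjusted p = 0.517).

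Histone genes outside the clusters, which mostly yield mRNA with a poly(A) tail, were also lower in part. Of 10 tested replacement and variant histone genes 7 were negative, 4 were lower at an unadjusted p under 0.05, 0 were higher and the median log2 fold change was -0.12. Over all tested genes 51.6% were negative, 5.87% were lower and 3.81% higher, and these shares are not matched for GC content. H2afx, the source of the damage-marking H2AX and the holder of a stem-loop, had 145 and 140.2 FPKM in MBP and 161 and 174 FPKM in control libraries (-0.23, limma adjusted p = 0.503). H2afz had 210.3 and 219.7 FPKM in MBP and 237 and 246 FPKM in control libraries (-0.17, adjusted p = 0.512). H3f3a, a gene for H3.3, had 19.4 and 19.5 FPKM in MBP and 22.3 and 23.7 FPKM in control libraries (-0.23, adjusted p = 0.496), and the fourth was H2afj (-0.26, adjusted p = 0.493). All 4 were lower in each MBP library than in each control library. Without overlap 6 of the 10 were lower and 0 higher, against 23.5% and 21.3% of all tested genes. Of 38 tested S phase genes 26 were negative, against 51.6% of all tested genes, and the median was -0.05. At an unadjusted p under 0.05, 4 were lower (E2f1, Lig1, Fen1 and Gins2) and 0 higher, against 5.87% and 3.81% of all tested genes. Without overlap 15 of the 38 were lower and 4 higher, against 23.5% and 21.3% of all tested genes. These shares, too, are not matched for GC content. E2f1, a transcription factor of S phase entry, had 21.4 and 21.3 FPKM in MBP and 24.5 and 26.1 FPKM in control libraries (-0.23, adjusted p = 0.496). Lig1, the ligase that joins newly copied DNA fragments, had 24.2 and 25.5 FPKM in MBP and 27.9 and 28.4 FPKM in control libraries (-0.17, adjusted p = 0.503). The part of these genes, or of cell cycle position, in the lower histone level was not tested.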

How the data were processed

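RNA came from 2 MBP and 2 control libraries of C8-D1A cells. Per the labels' protocols, libraries were directional and depleted of ribosomal RNA. Bcl2fastq, HISAT2 and GRCm38 are named in the submitters' processing notes. Not given in the sources used here: versions, counting program, annotation, strand setting and treatment of reads with several matches. FPKM per gene, with symbol, biotype and position, is what the authors deposited. Columns were matched to samples by title, and libraries were numbered in accession order, which pairs nothing. The labels do not say whether libraries came from separate cultures, so p-values measure only the spread between these libraries, which may be technical.

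Reads were recovered from the deposited FPKM as whole multiples of 1 step per library (all values of single-exon genes under 1000 reads were whole within 0.05); they are not independent molecules. Values entered the test as log2(FPKM + 1) where a gene reached 1 FPKM in 2 or more of the 4 libraries, so folds of low genes come out too small. Limma 3.58.1 (lmFit; eBayes, trended; two-sided) was run under R 4.3.3, MBP minus control, Benjamini-Hochberg over every gene that entered, threshold 0.05. Sums and sequence searches used Python 3.11.15 with pandas 2.3.3 and scipy 1.17.1, and figures matplotlib 3.10.9. Sequences came from RefSeq and GENCODE.

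The histone genes and the other gene lists were chosen with earlier results of these data known. Values are printed for the 3 genes of highest mean FPKM in each class, up to 8 non-overlapping genes of lowest p per direction (none was higher), the 3 head-to-head pairs of highest level, and, from the other lists, for some of the 4 genes of lowest p and for Slbp, Npat, Casp8ap2, Lsm10 and Lsm11. Hist1h1d, Hist1h1e, Hist1h3a, Hist1h3b, Hist1h4c, Hist2h3c2 and the testis genes were named after their values were seen. Alternatives were other pseudocounts (0.1, 0.01), other filters (none, 5 FPKM), other scalings (TPM, median-of-ratios, quantile), eBayes untrended or robust, protein-coding genes only, each library corrected by loess (span 0.5) for GC and length, limma-voom on the recovered reads (mean of 10 or more), and each library left out.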

Additional observations from a re-analysis of the deposited data

How the results depend on the processing

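The median log2 fold change over tested histone genes stayed negative under every alternative run, and the ratio of summed FPKM stayed below 1. With the GC and length correction, 13 histone genes were lower at an unadjusted p under 0.05 and 1 higher, with a median of -0.16; the log2 fold change turned to 0.0706 for Hist1h2ag, 0.00854 for Hist1h2af, 0.0614 for Hist1h3g and 0.0222 for Hist2h2ac. Quantile normalization gave a ratio of 0.908 and turned Hist1h3g to 0.000498, and TPM gave a ratio of 0.872. The cause of these shifts was not tested. Limma-voom called 2 histone genes at an adjusted p under 0.05, and 0 passed under each of the other alternatives. With each library left out in turn, 14 to 24 genes were lower and 0 to 3 higher, the median was -0.17 to -0.28 and the ratio 0.852 to 0.866. Hist1h2ag then ranged from -0.282 to 0.142 and Hist1h3e from -0.203 to 0.223. Where this left a group with 1 library, limma took its spread from the other group. Of 366 alternative values of 23 named genes 357 kept their direction and 9, in 5 genes, did not. The other alternatives were chosen after seeing the data: without Hist2h2ac and Hist2h4 the ratio was 0.844, as a share of reads it was 0.858, and over genes with at least 50% unique windows it was 0.861. No paired analysis was possible because library numbers were given in accession order and pair nothing. The depth limits the 13 genes that were not tested, at 24 reads or fewer in each library.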

Other observations

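The processed pseudogene Hist3h2bb-ps, which does not code for protein and was not among the 64 genes, had 25.4 and 31.2 FPKM in MBP and 36.5 and 38.3 FPKM in control libraries, from 283 and 376 reads in MBP and 413 and 420 reads in control libraries. Its groups did not overlap, and its level lay above that of both Hist3 genes in the list, Hist3h2ba (10.7 and 11.8 FPKM in MBP, 11.7 and 14.2 FPKM in control libraries) and Hist3h2a (0.895 and 1.06 FPKM in MBP, 1.014 and 1.56 FPKM in control libraries). The other pseudogene of the clusters, Hist1h2aj, had at most 6 reads in a library.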
